A study of Mus musculus with 4 samples.

Results

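The AP-1 and heat shock genes described here are Fos, Fosb, Jun, Junb, Jund, Dusp1, Ier2, Zfp36, Hspa1a and Hspa1b, 10 of the 31053 genes counted. They were taken by gene symbol because transcripts of this kind are widely used to judge whether cells were stressed while a tissue was taken apart. Fos and Fosb proteins pair with Jun, Junb or Jund proteins to form AP-1, a transcription factor that binds DNA only as a dimer. Most of these genes are immediate early genes: signals through mitogen-activated protein kinases (MAPK), antigen receptors or mechanical and enzymatic handling switch them on within minutes, without new protein synthesis. Dusp1 encodes a phosphatase that turns the MAPKs off again, Zfp36 encodes tristetraprolin, which speeds the decay of AU-rich mRNAs, and Ier2 encodes a nuclear early response protein. Hspa1a and Hspa1b are adjacent genes for the inducible HSP70 chaperone and are switched on by heat shock factor when proteins misfold.

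Cells came from inguinal lymph nodes draining B16F10 melanomas, a transplantable tumour grown in both upper thighs of C57BL/6J mice. Treated mice (2) received indoximod, an inhibitor of the indoleamine 2,3-dioxygenase pathway, at 2 mg/ml in the drinking water from day 9, ibrutinib, an inhibitor of Bruton's tyrosine kinase, at 350 ug per day, and cyclophosphamide, a cytotoxic drug, once at 150 mg/kg on day 10. Control mice (2) carried the same tumours without these drugs. Nodes were taken 48 h after the cyclophosphamide dose and were disaggregated mechanically, filtered through a 40 um mesh and washed 4 times in saline with 1% albumin. All cells thus went through steps that can themselves induce genes of this kind. Whether they did so here was not tested.

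Each cell barcode carries a library number from 1 to 4, and no source used here ties a number to a mouse or a treatment. Treated and control mice are therefore not compared, and the treatment, the mouse and the handling of a library cannot be told apart. Of 30824 barcodes with 173305562 unique molecular identifiers (UMIs, counts of single mRNA molecules), 26096 had at least 300 genes and at most 10% mitochondrial UMIs. Libraries 1 to 4 kept 5667, 5758, 6335 and 8336 cells, with median depths of 5558, 5416.5, 5321 and 5229 UMIs and median mitochondrial shares of 4.83%, 4.60%, 4.87% and 5.10%. Marker genes assigned 19887 cells to 12 classes, named here "-like". Of 35 markers kept out of the gates, 29 were highest in their own class. Within the kept cells, 145 carried a barcode sequence that also occurred in another library. In single cells from a suspension, free RNA adds UMIs to every barcode, and no class that lacks AP-1 transcripts was at hand to measure it.

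Promoter sequences were taken from RefSeq for GRCm38.p6, and the table used here held 9 of the 10 members, without Ier2. Letters were searched on both strands in the 250 bases before each start site. The stretches of 5 members that hold a cyclic AMP response, Jun-type or heat shock match are shown, since these are motifs of the programmes the 10 genes belong to. They are printed 5′ to 3′ up to the start site, with the motif in capitals: the short form TGACGT of the cyclic AMP response element and TATA box TATAAA in Fos, the Jun-type AP-1 site TGACATCA in Jun, the full element TGACGTCA with a further TGACGT in Dusp1, and the paired heat shock element GAANNTTC in Hspa1a and Hspa1b.
Fos (chr12:85473780-85473889, plus strand): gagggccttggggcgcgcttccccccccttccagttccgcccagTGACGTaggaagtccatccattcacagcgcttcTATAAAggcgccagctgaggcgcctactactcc
Jun (chr4:95052223-95052332, minus strand): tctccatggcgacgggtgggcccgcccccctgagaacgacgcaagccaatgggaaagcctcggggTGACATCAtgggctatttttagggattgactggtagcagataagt
Dusp1 (chr17:26508473-26508672, minus strand): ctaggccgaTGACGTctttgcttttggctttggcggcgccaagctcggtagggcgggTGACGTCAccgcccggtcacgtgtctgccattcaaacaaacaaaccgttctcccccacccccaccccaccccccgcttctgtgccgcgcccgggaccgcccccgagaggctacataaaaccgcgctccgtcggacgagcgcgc
Hspa1a (chr17:34972157-34972376, minus strand): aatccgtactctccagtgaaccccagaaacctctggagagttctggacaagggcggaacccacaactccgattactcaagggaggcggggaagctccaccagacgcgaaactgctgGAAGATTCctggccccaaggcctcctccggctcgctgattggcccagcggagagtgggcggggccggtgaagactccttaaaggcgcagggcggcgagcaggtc
Hspa1b (chr17:34959239-34959458, minus strand): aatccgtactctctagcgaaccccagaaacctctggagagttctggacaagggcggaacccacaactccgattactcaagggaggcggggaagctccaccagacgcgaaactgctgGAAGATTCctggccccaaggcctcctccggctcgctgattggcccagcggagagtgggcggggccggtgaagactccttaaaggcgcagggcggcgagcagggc
The 2 HSP70 promoters were identical at 247 of 250 bases, and their heat shock element lay at the same position. GAANNTTC was also found in the Jun window and in 6.69% of 32851 promoters. TGACGT occurred in 6.47% of promoters and in 2 members, TGACGTCA in 1.55% and in 1 member, TGACATCA in 2.93% and in 1 member, and TATAAA in 12.4% and in 1 member. A TGACGTCA match also counts as a TGACGT match. The consensus AP-1 site TGACTCA was in 4.46% of promoters and in none of the 9 windows. The serum response (CArG) element, in 1.47% of promoters, was found in Zfp36, whose window is not printed. A match is only a match of letters.

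Levels differed widely between the members. All values are UMIs per 1000000 UMIs of a class (CPM) with UMIs of the libraries summed, and since the assay counts 3′ ends, CPM is not divided by transcript length and levels are compared within a gene. In B-like cells (8971 cells) the summed levels were 27.1 CPM for Fos, 45.4 CPM for Fosb, 88.4 CPM for Jun, 160 CPM for Junb, 650.3 CPM for Jund, 7.36 CPM for Dusp1, 130.3 CPM for Ier2 and 157 CPM for Zfp36. In the whole matrix Hspa1a had 32 UMIs and Hspa1b 106 UMIs, so the inducible HSP70 genes were close to the limit of detection in nearly every class.

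**Figure D1:**
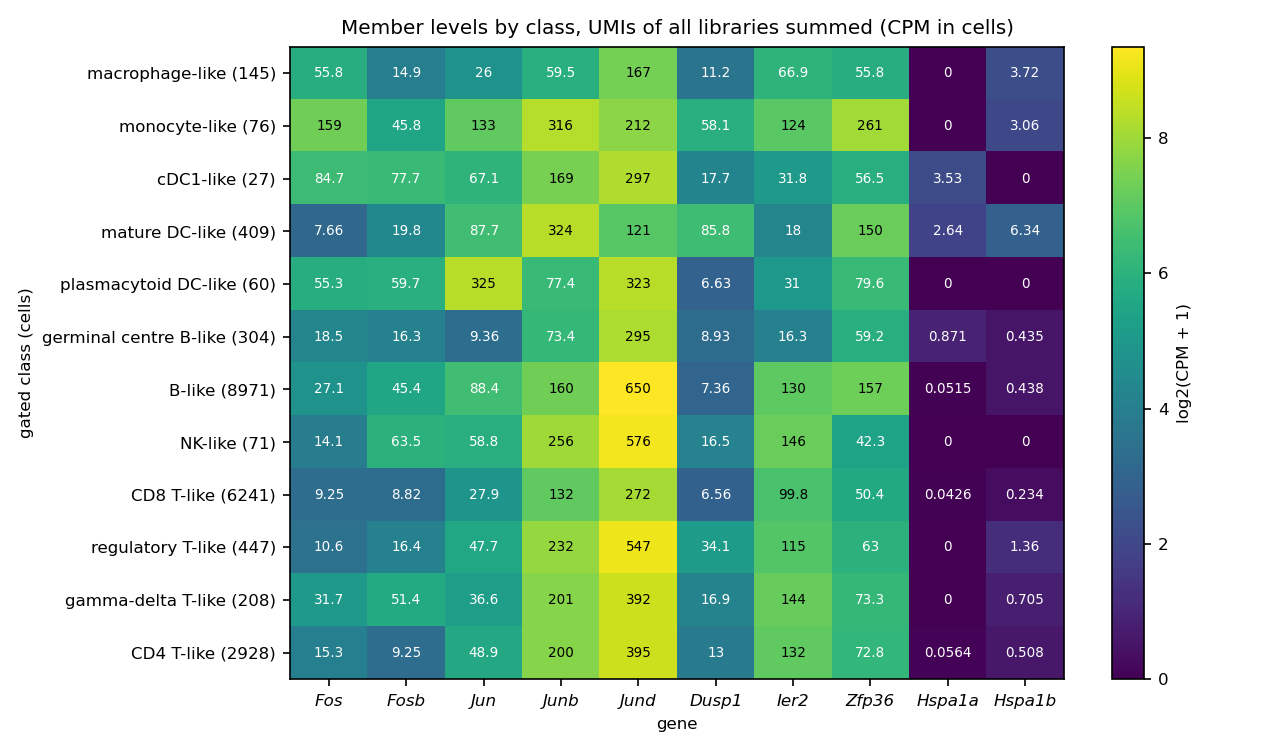
Heat map of the 10 genes (columns) in 12 gated classes (rows, with the number of cells), with UMIs of all libraries summed. Colour is log2(CPM + 1) and the printed value is CPM: Jund at 650 CPM in B-like cells is the highest value of any class, and the 2 HSP70 genes stay below 7 CPM in all 12 classes.

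Between libraries, Fos, Fosb, Dusp1 and Jun differed most among the members in B-like cells. Fos had 17.4, 15.9, 37.0 and 33.6 CPM in B-like cells of libraries 1, 2, 3 and 4, from 151, 129, 346 and 428 UMIs. Libraries 3 and 4 were higher than libraries 1 and 2, and the highest value was 2.32 times the lowest (95% interval of the ratio 1.89 to 2.86). Fosb, the second Fos family member, had 31.3, 34.3, 50.7 and 58.0 CPM, and the ratio was 1.85. Jun had 67.7, 60.6, 104 and 109 CPM, with a ratio of 1.79. Both genes were again highest in libraries 3 and 4. Dusp1, the MAPK phosphatase that answers the same signals, had 6.12, 4.94, 8.98 and 8.56 CPM, with a ratio of 1.82. These intervals come from exact Poisson or binomial limits and cover counting error only, and no test was made, since a library is 1 sample.

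The other members moved less or not at all in B-like cells. Junb had 136, 142, 179 and 173 CPM and a ratio of 1.31. Jund had 554, 618, 693 and 704 CPM and a ratio of 1.27. In these 2 Jun family genes libraries 3 and 4 were also the higher ones, by less than the fold of 1.5 used here to call a difference. Ier2 had 127, 135, 131 and 129 CPM, a ratio of 1.06, and Zfp36 had 164, 158, 160.1 and 148 CPM, a ratio of 1.11. For these 2 early response genes the 4 libraries were nearly level, and 94.9% of the genes tested in B-like cells had a larger ratio than Ier2. Hspa1a had 1, 0, 0 and 1 UMI and Hspa1b 4, 6, 3 and 4 UMIs, too few to compare.

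In all, 4 of the 8 members with at least 50 UMIs in B-like cells passed 1.5-fold between the highest and the lowest library, against 16.9% of all 10330 genes tested. The median ratio was 1.55 over these 8 and 1.22 over all genes. For Fos 2.75% of genes had a larger ratio, for Fosb 6.99%, for Dusp1 7.55% and for Jun 8.02%. Leaving out library 2 brought Dusp1 to 1.47. Among the 243 to 367 B-like cells of a library with at most 4% mitochondrial UMIs, Fos had 19.6, 16.9, 50.1 and 20.3 CPM in libraries 1 to 4, from 20, 26, 57 and 18 UMIs, so only library 3 stood above the rest. Dusp1 had 11.8, 4.55, 22.0 and 3.38 CPM there, lowest in library 4 with 3 UMIs, and had too few UMIs for a call. Jun had 73.5, 61.0, 80.0 and 91.2 CPM, a ratio of 1.49, still highest in libraries 3 and 4. In these cells 40.3% of all genes passed 1.5-fold. Among B-like cells with over 4% mitochondrial UMIs, Fos had 17.2, 15.7, 35.2 and 34.6 CPM, again higher in libraries 3 and 4.

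**Figure D2:**
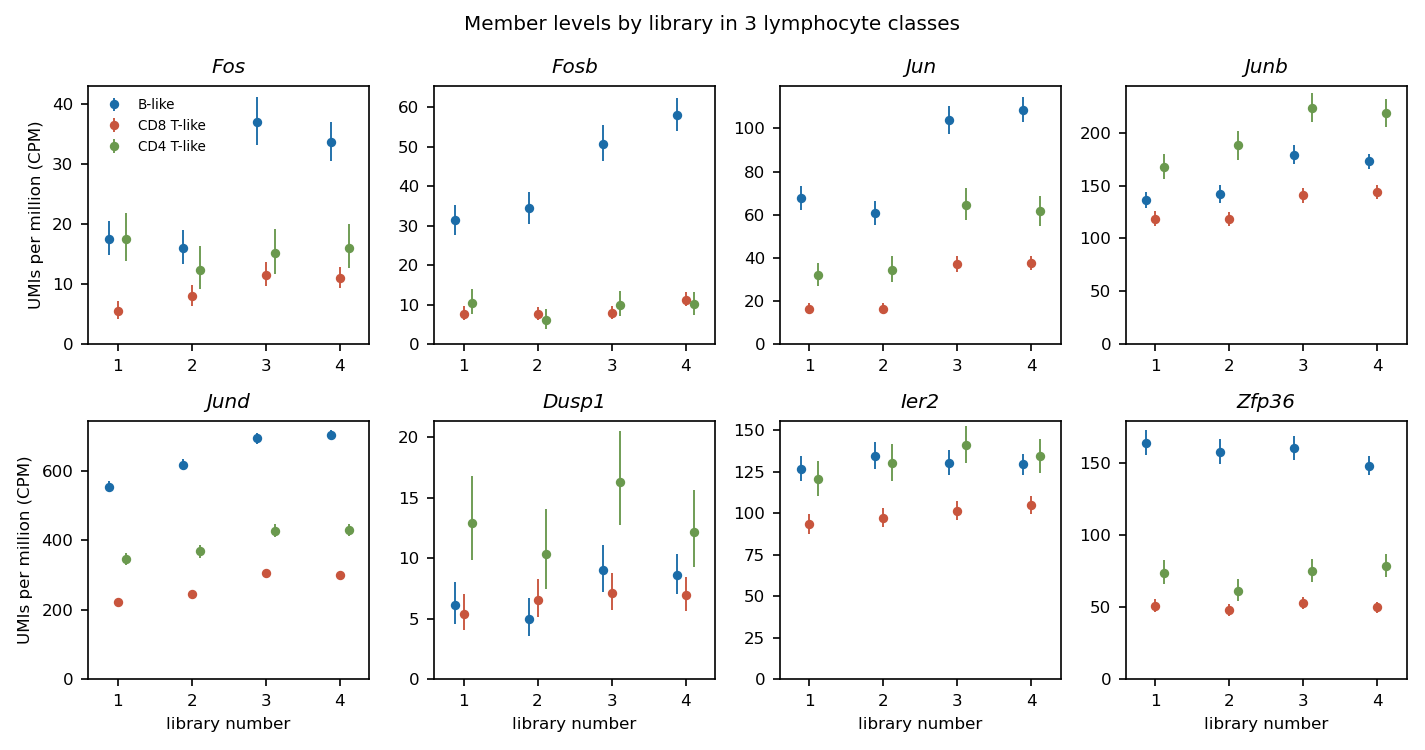
Counts per 1000000 UMIs (CPM, y axis, from 0) of the 8 members with enough counts, by library (x axis), in B-like, CD8 T-like and CD4 T-like cells. Bars are 95% Poisson intervals, which cover counting error only: Jun is higher in libraries 3 and 4 in all 3 classes, Fos in the B-like and CD8 T-like cells, and the ratios of Ier2 and Zfp36 run from 1.06 to 1.28 over the 3 classes.

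CD8 T-like cells (6241) showed a library difference in Jun and Fos. Jun had 16.4, 16.5, 37.0 and 37.5 CPM in libraries 1 to 4, and the ratio was 2.29 (1.92 to 2.74). Fos had 5.50, 8.03, 11.5 and 11.01 CPM, with a ratio of 2.09. Libraries 3 and 4 were again the highest for both genes. The Fos value of library 2 leaned on 1 cell with 24 of the 88 UMIs, and without that cell it was 5.85 CPM. Fosb had 7.76, 7.67, 7.88 and 11.3 CPM, highest in library 4, where 1 cell held 27 of 158 UMIs and the level without it was 9.37 CPM. Junb (119, 118, 141 and 144 CPM) and Jund (221, 245, 305 and 301 CPM) stayed under 1.5-fold. Dusp1, Ier2 and Zfp36 had ratios of 1.32, 1.12 and 1.09. So 2 of 8 members passed, against 15.2% of 10485 genes. Without library 1 the ratio of Fos was 1.43 and only 1 member passed.

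In CD4 T-like cells (2928) Jun had 32.0, 34.4, 64.6 and 61.5 CPM, a ratio of 2.02 (1.64 to 2.49). Jun was therefore higher in libraries 3 and 4 in B-like, CD8 T-like and CD4 T-like cells alike. Fos had 17.5, 12.4, 15.1 and 15.98 CPM here, with library 2 lowest and a ratio of 1.41. Fosb had 10.4, 6.07, 9.94 and 10.1 CPM, and Dusp1 had 12.9, 10.4, 16.3 and 12.1 CPM. Both were lowest in library 2, and without that library their ratios were 1.05 and 1.34. Junb (168, 188, 224 and 219 CPM) and Jund (347, 368, 428 and 429 CPM) were higher in libraries 3 and 4 by less than 1.5-fold. Ier2 and Zfp36 had ratios of 1.17 and 1.28. Jun, Fosb and Dusp1 passed, 3 of 8 members, against 23.4% of 9254 genes. Among smaller classes the background is too high to read a count: in regulatory T-like cells 6 of 7 members passed against 51.3% of genes, in mature DC-like cells 3 of 7 against 58.7%, and in macrophage-like cells no member had 50 UMIs and 65.9% of genes passed.

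**Figure D3:**
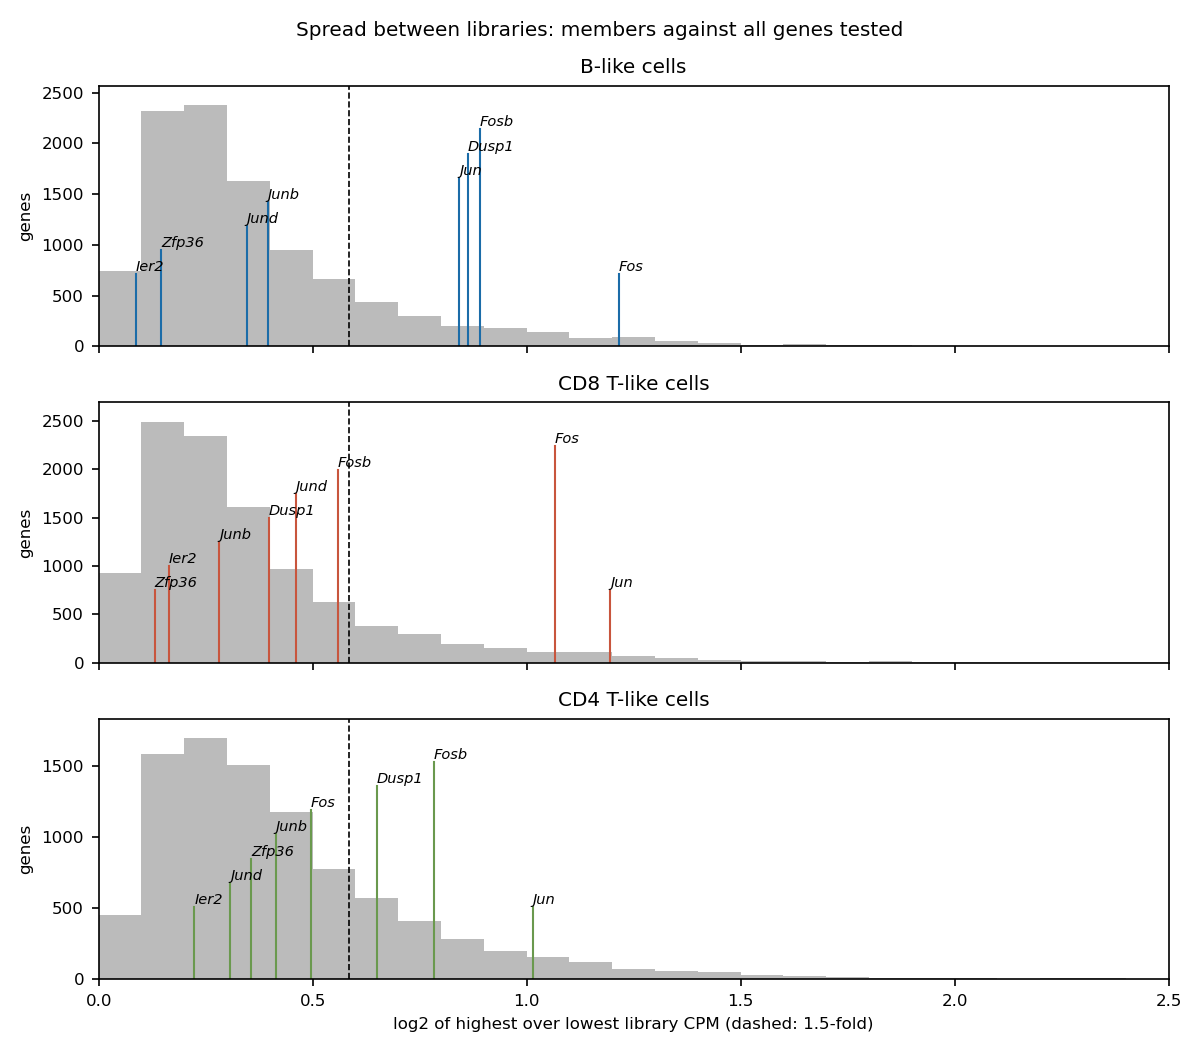
Histograms of the log2 ratio of the highest to the lowest library CPM (x axis) for all genes with at least 50 UMIs in B-like, CD8 T-like and CD4 T-like cells (y axis, genes per bin of 0.1), with each member marked by a line whose height carries no value. The dashed line is 1.5-fold: Fos and Jun lie in the right tail in B-like and CD8 T-like cells, and Ier2 and Zfp36 lie near the left end there.

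Summed over all kept cells, Fos, Fosb and Jun together had 67.4, 71.9, 112 and 117 CPM in libraries 1 to 4, and the 5 AP-1 genes 560, 598, 752 and 767 CPM. Hspa1a and Hspa1b together had 1.14, 1.21, 0.406 and 0.619 CPM, from 42, 45, 16 and 32 UMIs. The summed HSP70 level was thus lowest in libraries 3 and 4, which had the higher AP-1 sums. The Poisson intervals of libraries 1 and 4 overlapped, at 0.821 to 1.54 and 0.423 to 0.874 CPM. Mature DC-like cells held 34 of the 135 HSP70 UMIs and barcodes that met more than 1 gate held 32, and their part was not tested. In B-like cells (5, 6, 3 and 5 UMIs) and CD4 T-like cells (3, 2, 4 and 1 UMIs) the counts were too few to show a direction. The B-like cells of libraries 1 to 4 had median depths of 3869, 3696, 3826 and 3750 UMIs. Their median mitochondrial shares were 5.42%, 5.15%, 5.37% and 5.70%. Neither followed the full order of Fos or Jun, but both were lowest in library 2, as Fos and Jun were. The mitochondrial share was highest in library 4, as Jun was. In CD8 T-like cells the median mitochondrial shares were 4.70%, 4.52%, 4.84% and 5.02%, highest in libraries 3 and 4, as Jun and Fos were. In CD4 T-like cells they were 4.49%, 4.30%, 4.45% and 4.65%. Over all kept cells the share was also highest in libraries 3 and 4. Whether it plays a part in the library differences was not tested. Median depth was 7425, 7046, 6963 and 6653 UMIs in CD8 T-like cells and 6237.5, 5860.5, 5490 and 5565.5 UMIs in CD4 T-like cells, lower in libraries 3 and 4. At an equal 1500 UMIs per cell, a Jun UMI was still found in 2.09%, 2.45%, 5.65% and 6.28% of CD8 T-like cells and in 5.30%, 3.97%, 8.96% and 7.93% of CD4 T-like cells. Cell make-up did move with the library: germinal centre B-like cells numbered 146, 147, 5 and 6, and their part in the sums over all cells was not tested.

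Fos UMIs lay in few B-like cells, as a low mean count alone would also give. A Fos UMI was present in 5.59%, 5.27%, 10.5% and 9.71% of B-like cells of libraries 1 to 4. With every cell thinned to 1500 UMIs the shares were 1.89%, 1.94%, 4.50% and 4.01%, so the higher level in libraries 3 and 4 came with more Fos-positive cells. Thinning left out 127 shallower B-like cells. The 5% of B-like cells with most Fos held 92.1%, 96.1%, 66.2% and 68.0% of its UMIs, and the largest count in 1 cell was 8, 5, 25 and 30 UMIs. This 5% share depends on how many cells held a UMI at all, and no expectation at an equal mean was made. Taking out that top cell left Fos at 34.3 CPM in library 3 and 31.3 CPM in library 4. Jun, with more UMIs than Fos, was found in 8.99%, 7.65%, 12.1% and 12.7% of thinned B-like cells. Jund, which many resting cells transcribe, was present in 53.5%, 59.9%, 60.9% and 61.6%.

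Fos-positive B-like cells also held other AP-1 genes more often. In thinned cells a Fosb UMI was found in 13.5%, 35.1%, 12.6% and 14.8% of Fos-positive cells of libraries 1 to 4, against 3.85%, 4.28%, 5.85% and 6.29% of Fos-negative cells. Jun was found in 10.8%, 24.3%, 20% and 19.1% of Fos-positive cells, against 8.96%, 7.32%, 11.8% and 12.5% of Fos-negative cells. All 4 libraries had the same direction for both genes, and Fos-positive thinned cells numbered 37, 37, 95 and 115. For Jun the exact binomial interval of the Fos-positive share was 3.03% to 25.4% in library 1 and 12.4% to 27.5% in library 4, and both include the Fos-negative share. Zfp36, not an AP-1 gene, was also found more often, in 24.3%, 32.4%, 27.4% and 24.3% of Fos-positive cells. The Fos-negative shares were 21.8%, 21.8%, 21.0% and 19.4%, and the interval of the Fos-positive share included them in every library. Ier2 showed no common direction, with 21.6%, 13.5%, 14.7% and 21.7% in Fos-positive cells against 17.2%, 18.0%, 17.8% and 17.8% in Fos-negative cells. In CD4 T-like cells Jun had no common direction either, at 6.67%, 0%, 6.67% and 0% of 15, 9, 15 and 18 Fos-positive cells. The Fos-negative shares there were 5.27%, 4.03%, 9.01% and 8.10%. In CD8 T-like cells Jun was higher in every library, at 9.09%, 12.5%, 8.33% and 15.6% against 2.03%, 2.40%, 5.61% and 6.12%. Fosb had no common direction in either T-like class.

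Other genes of the same programmes did not all follow Fos and Jun in B-like cells. Of the AP-1 partner and early response list 4 of 17 genes tested passed 1.5-fold between libraries, of the MAPK phosphatase and ZFP36 family list 3 of 10, of the other heat shock genes 3 of 18, and of the antigen receptor induced genes 4 of 9, against 16.9% of all genes tested. The shares of the first and the heat shock list are near that background. Ppp1r15a, which restores translation after stress, had 26.0, 23.0, 41.0 and 34.5 CPM and was higher in libraries 3 and 4, as Fos was. Rhob, an early response GTPase, had 8.43, 5.31, 10.9 and 10.8 CPM, and Klf4, a transcription factor, had 8.43, 6.05, 9.83 and 8.72 CPM. Both were lowest in library 2 and highest in library 3, as Fos was, but Klf4 was nearly level between libraries 1 and 4. Rhob had 2.26, 1.92, 4.32 and 3.79 CPM in CD8 T-like cells, again higher in libraries 3 and 4. Klf4 had 2.26, 2.65, 2.37 and 1.79 CPM there, lowest in library 4. Cxcr4, the receptor that holds lymphocytes in CXCL12-rich zones, went the opposite way with 73.5, 65.5, 29.1 and 26.9 CPM. Cd83, a B cell activation marker, had 175, 180.4, 91.3 and 86.0 CPM, and Egr2, an antigen receptor induced transcription factor, had 2.54, 3.70, 1.82 and 1.10 CPM. Nr4a1, another gene that antigen receptors switch on, had 11.7, 9.51, 11.8 and 7.62 CPM, lowest in library 4. Il2ra, a subunit of the interleukin-2 receptor, rested on 64 UMIs.

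The heat shock genes with the largest library ratio in B-like cells were lower in libraries 3 and 4. Dnaja1, an HSP40 partner of HSP70, had 272, 298, 182 and 176 CPM, a ratio of 1.69. Hsp90b1, the HSP90 of the endoplasmic reticulum, had 307, 318, 194 and 189 CPM, and Dnajb1, the stress-inducible HSP40, had 36.6, 41.0, 27.7 and 27.1 CPM. Hspa5 (BiP), with 278, 290.3, 230 and 204 CPM, stayed under 1.5-fold. In CD8 T-like cells 0 of 18 other heat shock genes tested passed 1.5-fold, against 15.2% of all genes, and in CD4 T-like cells 2 of 19 did, Bag3 and Hsf2, against 23.4%. Antigen receptor induced genes differed more in T-like cells, with 8 of 12 in CD8 T-like and 10 of 11 in CD4 T-like cells. In CD4 T-like cells Nr4a1 had 20.2, 9.36, 6.78 and 10.3 CPM and Nr4a3 10.7, 5.06, 4.29 and 2.63 CPM, both highest in library 1, where Jun was lowest. In CD8 T-like cells Nr4a1 had 3.14, 2.83, 5.84 and 5.29 CPM, higher in libraries 3 and 4, as Jun was there. Of the phosphatase and ZFP36 list in B-like cells, the phosphatase genes Dusp5 and Dusp10 passed on 151 and 221 UMIs, and Rgs1, a regulator of G protein signalling that belongs to neither family, passed on 189 UMIs. The list also holds Rgs2 and Tnfaip3, which are likewise of neither family. Zfp36l2, a relative of Zfp36, had 210.1, 183, 154 and 162 CPM without passing. With cells that held a UMI of Nr4a1, Egr1, Egr2 or Cd69 left out, the number of members past 1.5-fold stayed 4 of 8 in B-like cells.

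**Figure D4:**
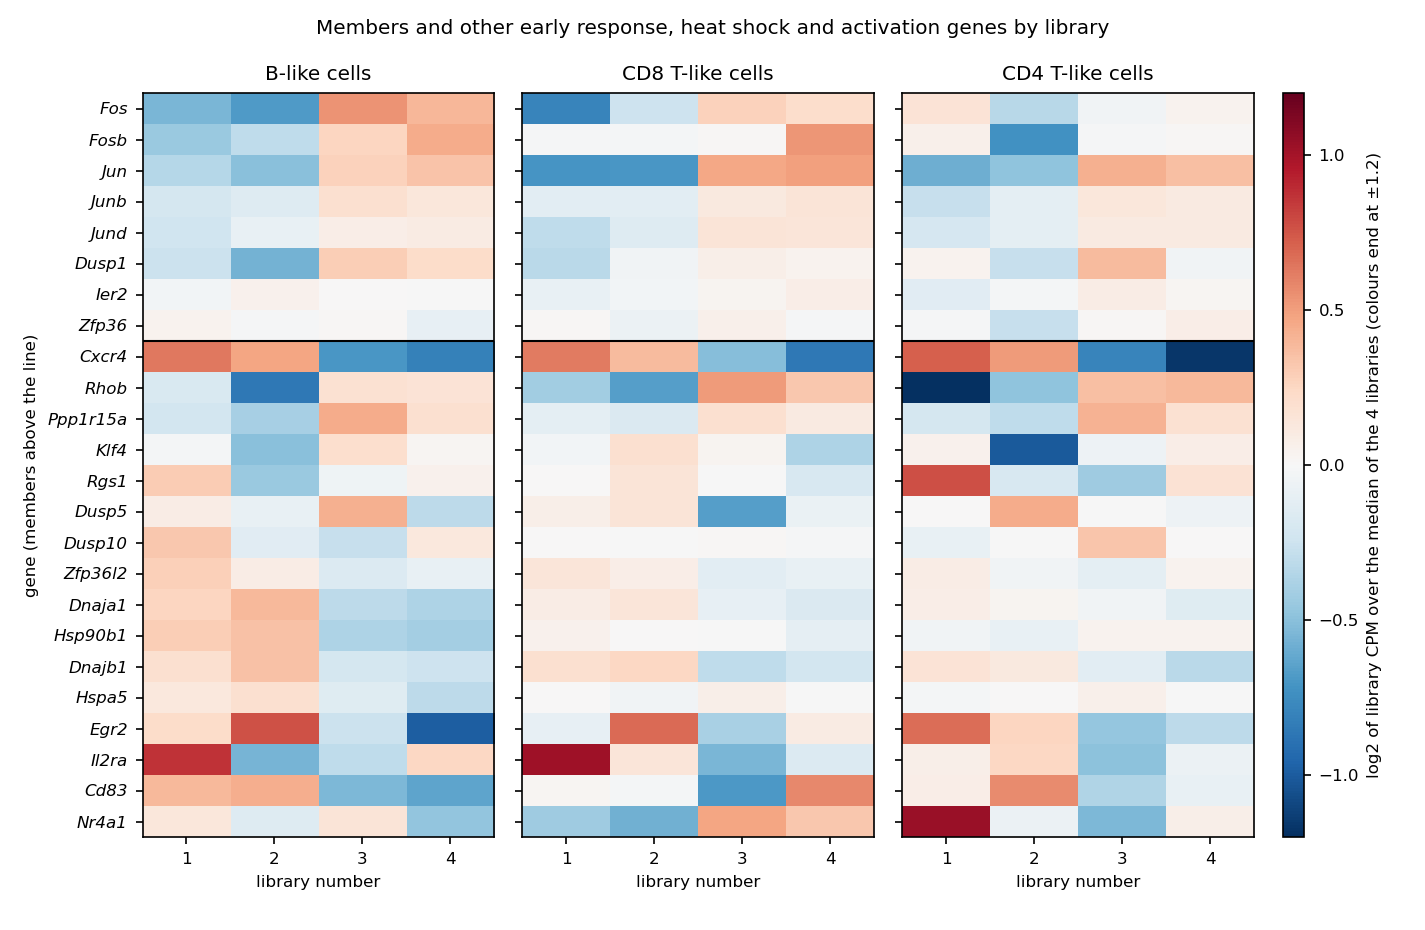
Heat map of the 8 members (above the line) and 16 list genes named by their library ratio in B-like cells (rows), by library (columns), in 3 classes. Colour is the log2 of a library's CPM over the median of the 4 libraries: Fos, Fosb and Jun are red in libraries 3 and 4 of B-like cells, where Cxcr4, Cd83, Dnaja1 and Hsp90b1 are blue.

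Between cell classes, each contrast was taken within every library, and a gene was called when all libraries with at least 10 UMIs passed 1.5-fold in 1 direction. In B-like over CD4 T-like cells, 4 of 8 members tested were higher and 0 lower, against 14.5% of all genes higher and 11.5% lower. Fosb was higher by 2.29 on the log2 scale (1.58 to 2.52 over libraries) and Zfp36 by 1.11 (0.91 to 1.36). Jun was higher by 0.85 and Jund by 0.72. When mitochondrial, ribosomal, immunoglobulin and member genes were left out of the scaling, Jun at 0.73 and Jund at 0.59 were no longer called. Fos differed with the library, from -0.003 in library 1 to 1.29, and was not called.

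CD8 T-like over CD4 T-like cells showed Jun lower, at -0.81 on the log2 scale, and Dusp1 lower, at -0.98, with 0 of 8 members higher, against 2.85% of genes higher and 3.2% lower. Dusp1 was no longer called under TMM scaling (-0.88) or with the reduced scaling (-0.89), and neither gene was called in thinned cells, at -0.59 for Jun and -0.11 for Dusp1. Regulatory T-like over CD4 T-like cells showed Dusp1 higher by 1.39 (1.06 to 1.61), at 34.1 CPM in the regulatory T-like cells and 12.98 CPM in the CD4 T-like cells, the only call among 8 members, against 9.74% of genes higher and 2.27% lower. In gamma-delta T-like over CD4 T-like cells 0 of 8 were called, against 5.31% higher and 2.28% lower, and 2 were higher without library 1. Fosb had 10.3, 40.9, 29.9 and 109 CPM in gamma-delta T-like cells of libraries 1 to 4, from 3, 11, 13 and 46 UMIs. In library 4, 1 cell held 23 of the 46 UMIs, and the level without it was 54.8 CPM. In NK-like over CD8 T-like cells Fosb, Jun and Jund were higher, against 6.75% of genes higher and 11.7% lower, but from only 71 NK-like cells, and none of the 3 was called under TMM or the reduced scaling.

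Mature dendritic cells (DC), which migrate to nodes and present antigen, differed from B-like cells in both directions. In mature DC-like (409) over B-like cells Dusp1 was higher by 3.54 (3.11 to 3.91), with 92.2, 74.5, 77.4 and 94.3 CPM in mature DC-like cells, against 6.12, 4.94, 8.98 and 8.56 CPM in B-like cells of libraries 1 to 4. The 2 classes did not overlap. Junb was higher by 1.02, and not called with the reduced scaling, at 0.62. Jund fell by 2.43 and Ier2 fell by 2.86 on the log2 scale. With Hspa1b these were 3 higher and 2 lower of 9 tested, against 17.4% of genes higher and 19.8% lower. The members thus went both ways in this class.

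Mature DC-like cells held 34 of the 135 HSP70 UMIs, in 409 of the 26096 kept cells. Hspa1b had 10.2, 10.8, 2.09 and 4.96 CPM in mature DC-like cells, from 7, 8, 2 and 7 UMIs, against 0.462, 0.741, 0.321 and 0.314 CPM in B-like cells, from 4, 6, 3 and 4 UMIs. All 4 libraries were higher in mature DC-like cells, and the log2 ratio was 3.86 over 24 and 17 UMIs. The call was lost without library 1, 2 or 4 (fewer than 3 libraries then had 10 UMIs), in thinned cells and with the stricter cell filter. Hspa1a had 2, 5, 2 and 1 UMIs in mature DC-like cells and 1, 0, 0 and 1 in B-like cells, below the minimum for a call. Only 20 of 409 mature DC-like cells held an HSP70 UMI, and 1 of them held 9 UMIs. Barcodes that met more than 1 gate held another 32 of the 135 UMIs, 22 of them in the 152 such barcodes with at least 3 mature DC markers. The 2 transcripts share 58.8% of 50-base windows of Hspa1a but none in their last 500 bases, where 3′ reads fall, so reads of that stretch can be told apart.

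Melanoma transcripts were counted among the mature DC-like barcodes of library 2. Of the melanoma markers Pmel, Mlana, Dct and Tyrp1, 1 mature DC-like barcode of library 2 held 3686 UMIs, among 144285 UMIs in all and with 3 of the 6 DC gate markers. The summed level of the 4 markers in mature DC-like cells was 1.46, 4993, 1.05 and 0.709 CPM in libraries 1 to 4, against 1.85, 7.53, 0.428 and 0.628 CPM in B-like cells. That barcode held all 15 Fos UMIs and 24 of the 27 Fosb UMIs of mature DC-like cells in library 2, and no HSP70 UMI. Without cells holding a melanoma UMI, Fos and Fosb were lower in mature DC-like than in B-like cells in every library used, at log2 ratios of -2.82 and -1.69, and the calls of Dusp1, Junb, Jund, Ier2 and Hspa1b stood. Not one of the 34 HSP70 UMIs of mature DC-like cells lay in a cell with a melanoma UMI.

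Monocyte-like cells (76, a gate that may also hold type 2 DC) had the highest Fos of any class. Fos had 64.6, 174, 166 and 262 CPM in monocyte-like cells, against 2.93, 20.3, 1.05 and 7.80 CPM in mature DC-like cells of libraries 1 to 4. The log2 ratio of 4.38 rested on 104 and 29 UMIs, and no library overlapped. Ier2 was higher by 2.79 and Zfp36 by 0.80, so 3 of 8 members were higher and 0 lower, against 12.8% of genes higher and 11.7% lower. Without cells holding a melanoma UMI the ratio of Zfp36 was 0.74 and it was not called, and under TMM scaling it was 0.39 and not called, while Dusp1 was called lower, at -0.97. In thinned cells the few UMIs left gave 0 calls among 5 members tested. Macrophage-like cells (145) had a median of 1118 UMIs, against 8297 in mature DC-like cells, and high haemoglobin RNA (Hbb-bs at 1896 CPM). In macrophage-like over mature DC-like cells Ier2 was higher by 1.90, and Jun, Junb, Dusp1 and Zfp36 were lower, at -1.75, -2.45, -2.94 and -1.43, against 11.2% of genes higher and 14.7% lower. Ier2 was not called under TMM scaling, at 1.26. With the stricter cell filter and in thinned cells only 2 of these 5 calls were left, and the part of depth in the contrast was not tested. In macrophage-like cells of library 4, 1 cell held 11 of the 13 Fos UMIs.

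Plasmacytoid DC-like cells (60) had the highest Jun of any class. Jun had 340.5, 247 and 257 CPM in plasmacytoid DC-like cells of libraries 1 to 3, against 67.7, 60.6 and 104 CPM in B-like cells. In library 1, 1 of 22 cells held 30 of the 65 UMIs, and the level without it was 205 CPM, a log2 ratio of 1.60 in place of 2.33. Jun was higher by 1.90 (1.31 to 2.33), and Ier2 and Zfp36 were lower, at -2.27 and -1.38, which makes 1 higher and 2 lower of 8, against 12% of genes higher and 15.6% lower. Under TMM scaling 6 members were called, 1 higher and 5 lower, with Junb at -1.56, Jund at -1.53 and Dusp1 at -1.92 added. Library 4 had only 6 such cells and did not enter. cDC1-like cells, the cross-presenting DC, numbered 27, too few for a contrast, with Fos at 84.7 CPM and Fosb at 77.7 CPM. In library 2, 1 of the 6 cDC1-like barcodes held 331 melanoma UMIs and 4 of the 5 Fos UMIs. Without it Fos was 75.3 CPM and Fosb 82.8 CPM over 26 cells.

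Germinal centre B-like cells, which divide and mutate their antibody genes in follicles, had enough cells only in libraries 1 and 2, and no call was made. Ier2 was lower than in B-like cells, at log2 ratios of -2.86 in library 1 and -3.06 in library 2. Jun was at -2.30 and -3.46, Zfp36 at -1.37 and -1.47, Jund at -0.97 and -1.03, Fosb at -0.92 and -1.05, and Junb at -0.90 and -0.92. Their 95% intervals lay below 0 in both libraries. Fos was at 0.15 and 0.23, with intervals that include 0. Dusp1 was at 0.55 and 0.92, with an interval that includes 0 in library 1 and runs from 0.10 to 1.71 in library 2. So 6 of 8 members were lower in CPM in both libraries, but the share of all genes lower was not computed. Median depth was 11729.5 UMIs in germinal centre B-like and 3785 UMIs in B-like cells, and its part in the CPM ratios was not tested. Without thinning, Junb was found in 53.3% of germinal centre B-like and 39.1% of B-like cells. Jund, Zfp36 and Fosb were likewise found in a larger share of germinal centre B-like cells. Jun (10.5% and 22.5%) and Ier2 (15.5% and 37.3%) were found in a smaller share.

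Other early genes were called in both directions in the class contrasts. In B-like over CD4 T-like cells 6 of 18 AP-1 partner and early response genes were higher and 5 lower, 3 and 4 of 10 in the phosphatase and ZFP36 family list, and 0 and 1 of 20 among other heat shock genes, against 14.5% of all genes higher and 11.5% lower. In mature DC-like over B-like cells 6 and 6 of 19, 4 and 2 of 10, and 4 and 2 of 19 were higher and lower in those lists, against 17.4% and 19.8% of all genes. The genes whose level over 34 class and library sums of 11 classes was most like Fos, by Pearson's r of log2(CPM + 10), were Bckdha at 0.81, Pde7b at 0.72, Atad3aos at 0.70, 2010109I03Rik at 0.70 and Ssc4d at 0.68. Bckdha reached 93.2 CPM and the other 4 stayed below 14 CPM, all of them on few UMIs. The Bckdha peak matches a whole UMI count of macrophage-like cells in library 4, a sum of only 75135 UMIs. In those cells 1 cell held 11 of the 13 Fos UMIs. Likeness to Hspa1a was highest for Amotl1 at 0.96, then Sync, Wwtr1, Gng4 and Nptx2 at 0.95. It rests on few UMIs of mature DC-like cells, mainly those of library 2, where Hspa1a peaked at 6.77 CPM from 5 UMIs. The highest levels of these genes, from 4.06 to 29.8 CPM, match whole UMI counts of that class and library. The barcode with 3686 melanoma UMIs lay there and held no Hspa1a UMI, and its part in the likeness was not tested. The points share libraries and differ in depth, so these values are only a description. Among the members themselves r of Fos was 0.14 with Fosb and 0.18 with Jun over the same points.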

How the data were processed

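The assay was 10x Genomics 3′ single-cell RNA-seq, version 3. The authors deposited 1 matrix of raw UMI counts for all libraries, made with Cell Ranger 5.0.0 per the file headers, on mm10 per the submitters' processing notes. Annotation and settings are not given in the sources used here. The labels put the aim at about 2000 cells for each sample and about 80k reads for each cell. Since library numbers are not tied to mice, treated against control is not analysed here, and the planned edgeR test was not made.

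A barcode was kept with 300 or more genes and no more than 10% mitochondrial UMIs. Cells were gated on markers, and barcodes meeting gates of 2 lineages (2284) were left out. Scrublet (scanpy 1.11.5) called 105, 120, 228 and 474 doublets in libraries 1 to 4 (1.85%, 2.08%, 3.60% and 5.69% of kept cells), removed only as an alternative. Within a library, the UMIs of each class were added up and divided by the class total to give CPM. A class contrast needed at least 10 cells of both classes in at least 3 libraries, and a gene 10 counts in each library. Library ratios used classes with at least 20 cells and genes with at least 50 counts. Of 11 planned class contrasts 9 were made. The fold rule of 1.5 is no significance test, was checked on simulated counts, and intervals cover counting error only, at 95%. A count of 0 allows up to 3 counts. The genes named are the members in every class, the 5 genes most like Fos and Hspa1a, and, from each list, up to 4 genes with the largest library ratio in B-like cells and up to 2 in CD4 T-like cells. The members and lists were chosen with earlier results of these data known. Alternatives were TMM factors (edgeR 4.0.16, R 4.3.3), a reduced CPM total, a stricter cell filter (500 genes, 5% mitochondrial UMIs), a strict gate, removal of Scrublet doublets, thinning to 1500 UMIs, no count minimum, a fold of 2 and leaving out each library. The software was matplotlib 3.10.9, scipy 1.17.1, pandas 2.3.3 and numpy 2.4.6 under Python 3.11.15.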

Additional observations from a re-analysis of the deposited data

Results flagged for a closer look

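Barcodes over 10% mitochondrial UMIs with at least 300 genes (787, 712, 415 and 1106 in libraries 1 to 4), which enter no comparison above, also carried the members. The 5 AP-1 genes together had 601, 611, 800.1 and 781 CPM in these barcodes of libraries 1, 2, 3 and 4, against 560, 598, 752 and 767 CPM in the kept cells. They drew attention because they are a signal outside the main measurement, above the limit that a count of 0 allows. The order of the libraries was close to that of the kept cells, with libraries 3 and 4 above libraries 1 and 2. Hspa1a and Hspa1b together had 0, 0, 0 and 1 UMI there. A count of 0 allows up to 2.70, 3.17 and 4.30 CPM in libraries 1 to 3, above the 1.14, 1.21 and 0.406 CPM of the kept cells, so a difference was not detectable at this depth. Of all barcodes, those under 300 genes included, 15.9%, 14.5%, 9.30% and 15.02% were over 10%.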

How the results depend on the processing

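Among members called in a class contrast, no log2 ratio that could be computed changed sign under any alternative run. Library ratios have no sign to reverse, and the lowest library could change. It did so for Dusp1 in B-like cells with at most 4% mitochondrial UMIs. Of the counts of members called, 150 recomputed values stayed within 1.5 times the main count and 33 moved. TMM gave 1 call in CD8 T-like over CD4 T-like, 0 in NK-like over CD8 T-like, 6 in plasmacytoid DC-like over B-like cells and 6 between libraries of mature DC-like cells. The reduced CPM total gave 1 in CD8 T-like over CD4 T-like and 0 in NK-like over CD8 T-like. The all-gene median shifted under TMM by -0.60 (log2) in NK-like over CD8 T-like, -0.46 in plasmacytoid DC-like over B-like and -0.63 in macrophage-like over mature DC-like cells, and under the reduced total by -0.13 in B-like over CD4 T-like and -0.40 in mature DC-like over B-like cells. The stricter cell filter gave 2 in macrophage-like over mature DC-like and 2 between libraries of regulatory T-like cells. Thinning gave 0 in CD8 T-like over CD4 T-like, 1 in NK-like over CD8 T-like, 2 in macrophage-like and 0 in monocyte-like over mature DC-like, and between libraries 1 in CD4 T-like, 4 in CD8 T-like and 3 in regulatory T-like cells. Without a count minimum the library counts were 5 in CD4 T-like, 4 in CD8 T-like, 6 in mature DC-like and 9 in macrophage-like cells. A fold of 2 gave 1 in B-like over CD4 T-like, 0 in CD8 T-like over CD4 T-like, 0 in NK-like over CD8 T-like, 2 in macrophage-like over mature DC-like, and between libraries 1 in B-like, 1 in CD4 T-like and 3 in regulatory T-like cells. Leaving out 1 library at a time gave 0 to 2 calls in gamma-delta T-like over CD4 T-like cells (2 without library 1), and between libraries 1 to 2 in CD8 T-like (1 without library 1), 1 to 3 in CD4 T-like (1 without library 2) and 3 to 6 in regulatory T-like cells (3 without library 1, 3 or 4). With cells holding Nr4a1, Egr1, Egr2 or Cd69 left out, chosen after seeing the data as were the mitochondrial split and the melanoma filter, 4 passed in CD8 T-like cells. Removing Scrublet doublets moved none of the 15 counts of members called, with Fos at 2.41 and Jun at 1.79 between libraries of B-like cells. The cause of the moves given above was not tested, beyond the fewer UMIs of thinning and the fold itself. Fos in B-like cells stayed above 1.5-fold in every alternative run. No paired analysis was possible because library numbers carry no mouse or replicate number and no test was made. Depth limits Hspa1a, Hspa1b and the classes under 100 cells.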
